A study of Saccharomyces cerevisiae with 4 samples.

Results

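The unheated strain labelled hsp30Δ was set against the heated parent strain, gene by gene, to see which parts of the transcriptome the 2 states shared and which they did not. Of the 4 Affymetrix arrays in the series, all of budding yeast, this comparison used 2, 1 array a side. The first array held RNA of cells labelled BY4741hsp30Δ::kanMX, kept at 30 °C. The second held RNA of BY4741 cells given 30 min at 40 °C. BY4741 is a haploid laboratory strain of mating type a with the alleles his3Δ1, leu2Δ0, met15Δ0 and ura3Δ0, and the deletion strain is labelled as made in it, so both sides carry those alleles. In the label hsp30Δ::kanMX the HSP30 gene is replaced by a drug resistance cassette. All cultures were in log phase in YPD, a rich glucose medium, and the labels do not say how many clones or cultures each array holds. The remaining arrays, BY4741 at 30 °C and the hsp30Δ-labelled strain after 30 min at 40 °C, were used for levels printed beside the comparison and for 1 difference that shares no array with it. Every one of the 5430 genes read above background on at least 1 of the 4 arrays was a member. Strain label and temperature changed together between the 2 sides, so their parts in any difference cannot be told apart, and with 1 array a side no difference has a replicate check or a test.

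Hsp30 is a small protein of the yeast plasma membrane that is made during heat shock and during exposure to ethanol or weak organic acids. It is known as a negative regulator of Pma1, the proton pump that uses ATP to keep the cell interior near neutral and to drive nutrient uptake. Heat shock in yeast acts through Hsf1, which switches on chaperone genes, and through Msn2 and Msn4, which switch on genes of trehalose synthesis, oxidative defence and energy reserves, while genes for ribosomes and their assembly are turned down.

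Values are log2 expression values, so a difference of 1 is 2-fold. The 4 levels given for a gene always stand in the order BY4741 30 °C, BY4741 40 °C, hsp30Δ-labelled 30 °C and hsp30Δ-labelled 40 °C. A difference is the level on the hsp30Δ-labelled 30 °C array minus the level on the BY4741 40 °C array unless another is named. Levels of single genes come from different probe sets and were not set against each other. The arrays also carry probe sets of fission yeast, whose readings, at most 2.84, stand for background. The bound for membership was lower, their 95th percentile of 1.96, and with 2.84 as the bound 5406 genes would be members. A reading below the fission yeast maximum is called at background.

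HSP30 itself read 15.51, 14.18, 15.18 and 15.91 on the 4 arrays. The gene named in the deletion was therefore high on both arrays labelled hsp30Δ, and it was 1.01 log2 units higher on the unheated array labelled hsp30Δ than on the heated BY4741 array. After the arrays were set to a common median this difference was 0.95, under 2-fold. The position of the HSP30 probes on the gene is unknown here, and probes that lie outside the deletion would check nothing. Whether these cells carry the deletion and whether the labels are right was not tested, so the arrays are called by their labels throughout. MET17, the current name of MET15, is deleted in BY4741 and lay at the lowest value, 1.95, on all 4 arrays. HIS3, of the named allele his3Δ1, read 12.36, 10.22, 9.95 and 10.15, well above background on all 4 arrays and unlike MET17. The position of its probes is unknown here too, and LEU2 and URA3 were not analysed here. The a-factor gene MFA1 was high on every array, between 13.33 and 14.80, while the 2 α-factor genes read at most 5.95, as the mating type in the label has it. The α-cell genes SAG1 and STE3 read up to 10.86 and 8.71. Over genes, the BY4741 30 °C array stood apart from the other arrays, with Pearson r between 0.787 and 0.849 against them, while the other 3 correlated with each other at 0.937 to 0.980. The comparison described here does not use that array.

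The 2 states were close to each other across most of the genome. Pearson r over the 5430 genes was 0.937 and Spearman rho 0.926, with genes as points and not as replicates. Of these genes, 4587 (84.5%) differed by less than 2-fold, and 2996 (55.2%) by less than 0.5 log2 units. Other pairs without BY4741 30 °C were closer. Within 2-fold were 89.7% of genes between the 2 arrays at 40 °C and 96.8% between the 2 hsp30Δ-labelled arrays. Pairs with BY4741 30 °C had 55.4% to 62.3%. On the unheated array labelled hsp30Δ, 507 genes (9.34%) were at least 2-fold higher than on the heated BY4741 array and 336 (6.19%) were at least 2-fold lower, together 15.5%. As these are whole cultures, fewer cells with a transcript and less of it in each cell cannot be told apart. The differences had a median of -0.03 and quartiles of -0.46 and 0.42. Their large end was one-sided. At least 4-fold higher were 145 genes (2.67%), and at least 4-fold lower were 5 (0.0921%). After quantile normalization of the 4 arrays these counts were 125 and 18.

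**Figure D1:**
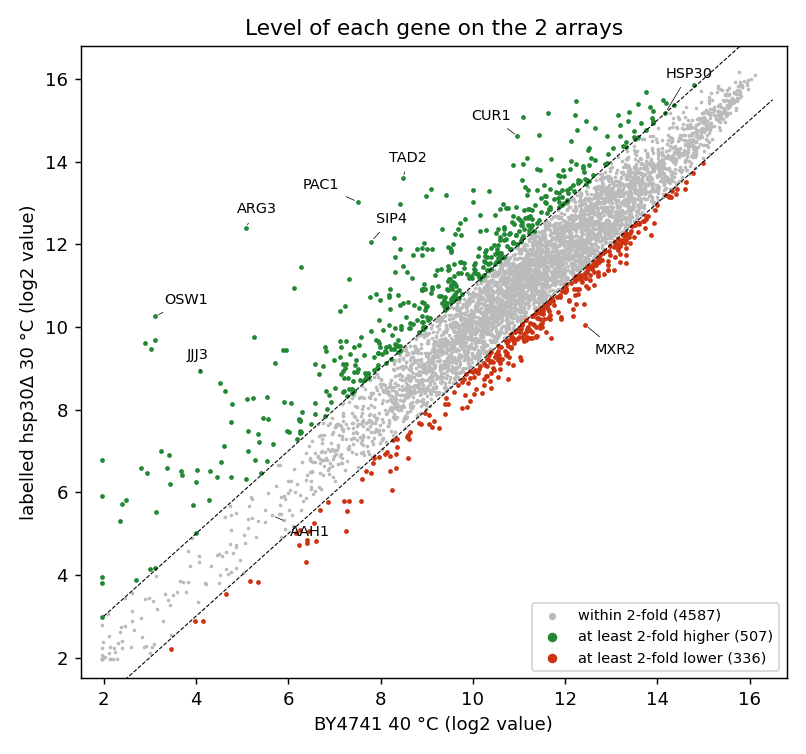
Log2 level of each of the 5430 genes on the BY4741 40 °C array (x axis) and on the array labelled hsp30Δ 30 °C (y axis); dashed lines mark 2-fold. The 507 genes at least 2-fold higher (green) spread far above the upper line, up to ARG3, while the 336 at least 2-fold lower (red) lie close under the lower line.

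The share of genes that were higher fell with the level of the gene. Among the 164 genes with a mean level under 6 on the 2 arrays, 19.5% were higher by 2-fold or more and 9.15% lower by as much. Among the 422 genes at 14 or more, these shares were 5.21% and 0.711%. The highest values were 16.11 on the BY4741 40 °C array and 16.16 on the hsp30Δ-labelled 30 °C array, and a gene that reads near the top of the scale on both can show no large difference.

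Of the genes that heat is known to switch on, some were alike on the 2 arrays, and others, given further on with the chaperones, were not. HSP104, the disaggregase that pulls proteins out of aggregates, read 15.23, 15.73, 15.72 and 15.71, a difference of 0.00. HSP26, a small heat shock protein that holds unfolded proteins, read 15.89, 16.11, 16.08 and 16.07. HSP31, a stress-induced methylglyoxalase, read 13.80, 14.72, 14.90 and 14.92. For these 3 genes the unheated hsp30Δ-labelled array was within 0.19 log2 units of the heated BY4741 array, and all 3 read lower on BY4741 30 °C. HSP104 and HSP26 were named as the smallest differences of their list, and they read too near the top of the scale to be much higher on either array. With genes above 15 on both arrays left out, the median difference of that list was 1.03 instead of 0.13. Of the 25 general stress genes of the Msn2/4 type, 24 lay within 2-fold, and the median level of the list was 14.39, 15.42, 15.30 and 15.31. Of all genes at a level of 14 or more, 5.21% were higher by 2-fold and 0.711% lower. The list lay near these shares. PGM2, a phosphoglucomutase on the path to trehalose and glycogen, read 14.71, 15.44, 15.46 and 15.42. Its difference, 0.02, was 1 of the 2 smallest of the list, for which it was named. The exception in the list was PHM8, a phosphatase that acts on nucleotides, at 11.38, 11.08, 13.95 and 13.83, which is 2.87 higher. The 18 genes of trehalose and glycogen metabolism had a median difference of 0.04, with 1 member past 2-fold each way. ATH1, the acid trehalase, was 1.07 higher at 11.70, 12.86, 13.94 and 13.49. GLG2, which primes glycogen synthesis, was lower by a difference of -1.14 at 10.20, 12.34, 11.21 and 11.14.

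The 3 lists of growth genes given here had lower medians on both arrays compared than on BY4741 30 °C, the array that stands apart. The 107 genes of ribosome biogenesis had median levels of 11.27, 8.34, 8.49 and 8.43. The 128 cytosolic ribosomal protein genes had median levels of 14.87, 12.76, 12.51 and 12.51. For the 19 genes of purine synthesis the medians were 13.96, 11.96, 11.65 and 11.68, and 0 of the 19 differed by 2-fold. In these 3 lists the BY4741 30 °C array stood above all others, and the 2 arrays compared here lay close to each other. MAK16, which is needed for the large ribosomal subunit, read 8.91, 5.14, 5.14 and 5.13. NOG2, a GTPase of the same pathway, read 12.29, 9.66, 9.67 and 9.55. HXT1, the low-affinity glucose transporter, read 10.02, 5.99, 5.98 and 5.93. Each of these 3 was alike on the 3 arrays other than BY4741 30 °C. They were named as the smallest differences of their lists, so their likeness on the 2 arrays compared was fixed by that choice. Other members of the same lists, given further on, differed, MRT4 by 2.77 and MIG2 by 2.20.

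The 29 genes of gluconeogenesis, the glyoxylate cycle and their carriers had median levels of 10.04, 12.85, 12.77 and 11.52. Their median difference was -0.16. Of them 3 (10.3%) passed 2-fold upward, SIP4 by 4.27, and 1 (3.45%) downward, beside 9.34% and 6.19% of all genes. Of the 20 hexose transporter and sensor genes 3 passed it upward and 0 downward. MLS1, malate synthase of the glyoxylate cycle, read 9.54, 12.85, 12.84 and 10.29, so it was high on the 2 arrays compared and lower on the other 2. It was named for 1 of the smallest differences of its list. For the 42 respiratory chain and ATP synthase genes the medians were 13.85, 14.93, 14.63 and 14.59, and 1 of them, ATP20, was at least 2-fold lower. ATP20 encodes a subunit of the ATP synthase dimer and read 13.51, 14.78, 13.72 and 13.77, and its difference of -1.06 was under 2-fold after quantile normalization (-0.98) or removal of the trend over level (-0.95). The 23 genes of glycolysis and fermentation included 0 that differed by 2-fold in either direction, and their differences ran from -0.76 for ADH5 to 0.43 for PYK2. The 10 histone genes also included 0 such genes. Both lists had median levels above 14 on the arrays compared. At that level 5.21% of all genes were higher by 2-fold and 0.711% lower, so few such members could be looked for.

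**Figure D2:**
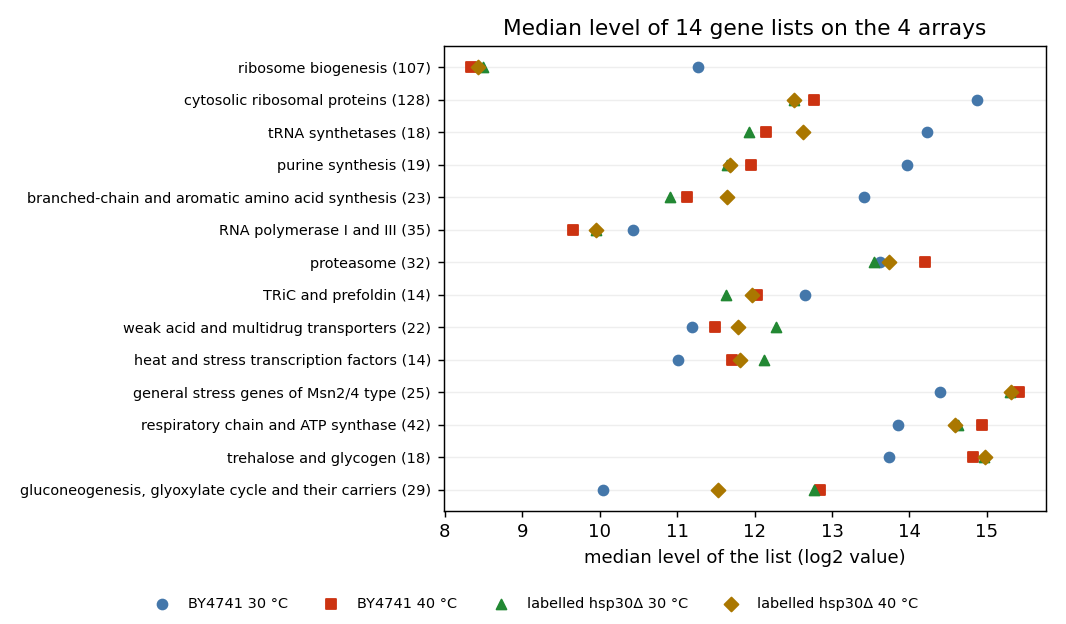
Median log2 level of 14 gene lists on the 4 arrays, with the number of genes used in parentheses. In ribosome biogenesis the unheated hsp30Δ-labelled array (8.49, triangle) lies beside BY4741 40 °C (8.34, square) and away from BY4741 30 °C (11.27, circle); in the proteasome list the square (14.20) lies above the triangle (13.55).

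Some genes were alike on the 2 arrays and far from BY4741 30 °C. They were picked by these very values, and the array they are far from is the one that stands apart from the rest. DSF1, which resembles mannitol dehydrogenase genes, read 7.81, 13.36, 13.23 and 13.28. ERR3, an enolase-related gene, read 5.47, 11.54, 11.34 and 11.30. YIG1, whose product interacts with a glycerol phosphatase, read 6.57, 12.47, 12.19 and 11.47. SNO4, a relative of HSP31, read 5.32, 10.33, 10.49 and 10.36. In the other direction, AAH1, the adenine deaminase that is lost when yeast enter quiescence, read 11.95, 5.64, 5.44 and 4.82. PPT1, a protein phosphatase bound to Hsp90, read 10.54, 4.87, 4.68 and 4.88. Among the 8 genes taken in that direction, SSF1, SYO1, UTP8 and NOP14 act in ribosome assembly. NOP14, a member of the small subunit processome, read 11.49, 7.16, 6.83 and 6.90. In all the genes of this paragraph the hsp30Δ-labelled 40 °C array was also on the side of the 2 arrays compared.

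The largest difference was in ARG3, ornithine carbamoyltransferase of arginine synthesis, at 7.55, 5.08, 12.40 and 11.69. It was 7.32 log2 units, or 160-fold, higher on the unheated hsp30Δ-labelled array. Both hsp30Δ-labelled arrays were high and both BY4741 arrays low. OSW1, needed for the outer spore wall, read 2.16, 3.12, 10.25 and 9.35 and was 7.14 higher. Its BY4741 40 °C reading is not far above the fission yeast maximum of 2.61 on that array, so this difference rests on a low reading. TAD2 encodes a subunit of the tRNA adenosine deaminase that makes inosine at the wobble base. It read 8.64, 8.49, 13.60 and 13.77 and was 5.11 higher. Its partner TAD3, named after its value was seen, differed by -0.67. PAC1, a regulator of the dynein motor that positions the spindle, read 8.44, 7.51, 13.03 and 12.68 and was 5.52 higher. JJJ3, a J protein of diphthamide synthesis, read 5.18, 4.10, 8.93 and 7.52 and was 4.83 higher. PEA2, a member of the polarisome at sites of bud growth, read 9.85, 8.99, 13.16 and 13.73 and was 4.17 higher. In ARG3, TAD2, PAC1, JJJ3 and PEA2 the BY4741 40 °C array was the lowest of the 4.

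SIP4, a transcription factor of gluconeogenic genes, followed another order, at 3.99, 7.80, 12.07 and 12.10. The heated BY4741 array lay between BY4741 30 °C and the hsp30Δ-labelled arrays, and the difference was 4.27. YPR015C was of the same kind at 6.05, 8.43, 12.97 and 13.88. YAL064W, at 2.79, 5.26, 9.75 and 9.50, and YOR032W-A, at 3.86, 6.13, 10.95 and 11.25, also had the heated BY4741 array between the others. The rest of the 15 largest were YDL114W, YML054C-A, YBR182C-A, YDR246W-A and YOR302W, with differences from 4.24 to 6.72. On BY4741 40 °C, YDL114W, YML054C-A and YBR182C-A read 2.90, 3.12 and 3.02, so their differences rest on low readings. YOR302W is the short frame in the leader of the CPA1 transcript through which arginine stalls translation, and it read 9.38, 9.09, 13.33 and 11.65.

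**Figure D3:**
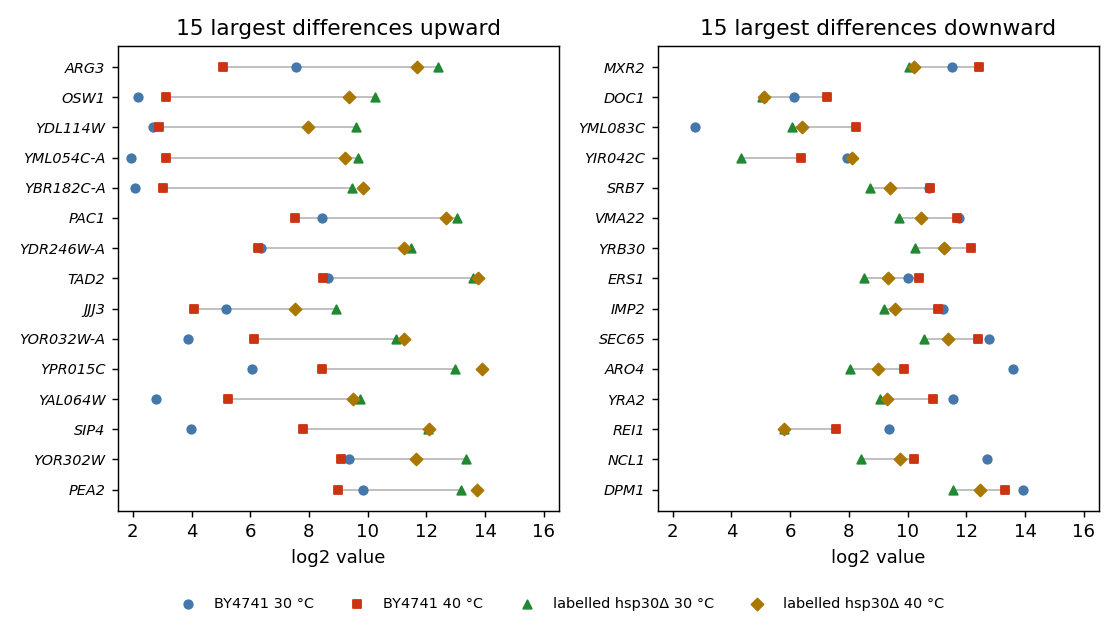
Log2 levels on the 4 arrays for the 15 genes with the largest differences upward (left) and downward (right) among genes above the highest fission yeast probe set on both arrays; the grey line joins the 2 arrays compared. On the left both hsp30Δ-labelled arrays (triangle, diamond) lie to the right of both BY4741 arrays; on the right the distances are shorter, from 1.79 to 2.38.

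Downward differences were smaller, and the 15 largest ran from -1.79 to -2.38. MXR2, the mitochondrial methionine-R-sulfoxide reductase that repairs oxidised methionine, read 11.51, 12.44, 10.05 and 10.21, a difference of -2.38. The order among the lowest depends on the scaling: after quantile normalization MXR2 was at -2.34, and YML083C (-2.98), DOC1 (-2.92), REI1 (-2.57) and YIR042C (-2.41) lay beyond it. DOC1, a subunit of the anaphase-promoting complex, read 6.14, 7.25, 5.06 and 5.12, with a difference of -2.19. SRB7, a Mediator subunit, read 10.72, 10.75, 8.73 and 9.38, with a difference of -2.02. In MXR2, DOC1 and SRB7 both hsp30Δ-labelled arrays were below both BY4741 arrays. VMA22, an assembly factor of the vacuolar proton pump, had the same order at 11.74, 11.69, 9.72 and 10.46. SEC65, of the signal recognition particle, read 12.78, 12.40, 10.57 and 11.37. DPM1, which makes dolichol phosphate mannose for glycosylation, read 13.94, 13.33, 11.54 and 12.46.

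A second kind among the lower genes was already low on the heated BY4741 array and lower still on the unheated hsp30Δ-labelled one. ARO4, which starts aromatic amino acid synthesis, read 13.59, 9.88, 8.05 and 9.0. NCL1, a tRNA methyltransferase, read 12.71, 10.20, 8.41 and 9.72. REI1, a cytosolic factor of the large ribosomal subunit, read 9.37, 7.58, 5.78 and 5.79. All 3 were highest on BY4741 30 °C, and their differences in the comparison described lay between -1.83 and -1.79. YIR042C was unlike the rest, at 7.93, 6.38, 4.32 and 8.12: it was low on the unheated hsp30Δ-labelled array and highest on the heated one.

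Genes with a systematic name only were more often among the higher genes on these arrays, with no test of the difference in shares. Of 490 such reading frames, 103 (21.0%) passed 2-fold upward and 28 (5.71%) downward. Of the 4940 genes with a standard name, 8.18% were higher and 6.23% lower. The frames also read lower, with a median level of 10.01 against 11.29. Split at a level of 10, the higher share was 27.0% against 11.6% below it. At or above it, 37 of 246 frames were higher, against 6.98% of the named genes. Whether these frames are translated is not known from arrays.

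Higher genes lay beside other higher genes more often than genes overall did, with no test of this share. Gene order was taken from the RefSeq table of the R64 assembly and used for neighbours alone. Of the 501 higher genes with a measured neighbour, 135 (26.9%) had a neighbour that was also at least 2-fold higher, against 16.4% of all 5385 genes with a neighbour. For lower genes, 14.7% had a lower neighbour, against 11.0% of all. Among the 4987 adjacent pairs, 9 had both members at least 4-fold higher. SIP4 and ARG3 were such a pair, and so were YOR302W with CPA1 and YOR268C with PAC1. SPS2 and SPS1, both of sporulation, were another. The others were YBL071C-B with KTI11, SMP1 with YBR182C-A, PRM7 with BSC1, DUR3 with YHL015W-A and YOR008C-A with TIR4. YOR302W lies in the leader of the CPA1 transcript, so the readings of that pair are not independent. Overlap between the other transcripts was not examined, so readings of those pairs may not be independent either. BSC1 and YBL071C-B read 2.39 and 2.36 on BY4741 40 °C, at background, so the size of their differences is not exact.

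The members were then read by function, in 50 lists that hold 1374 of the genes. The medians of the lists ran from -0.65 to 0.83, with 26 above 0 and 24 below, beside -0.03 for all genes. Shares of higher and lower members are to be read against 9.34% and 6.19%.

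**Figure D4:**
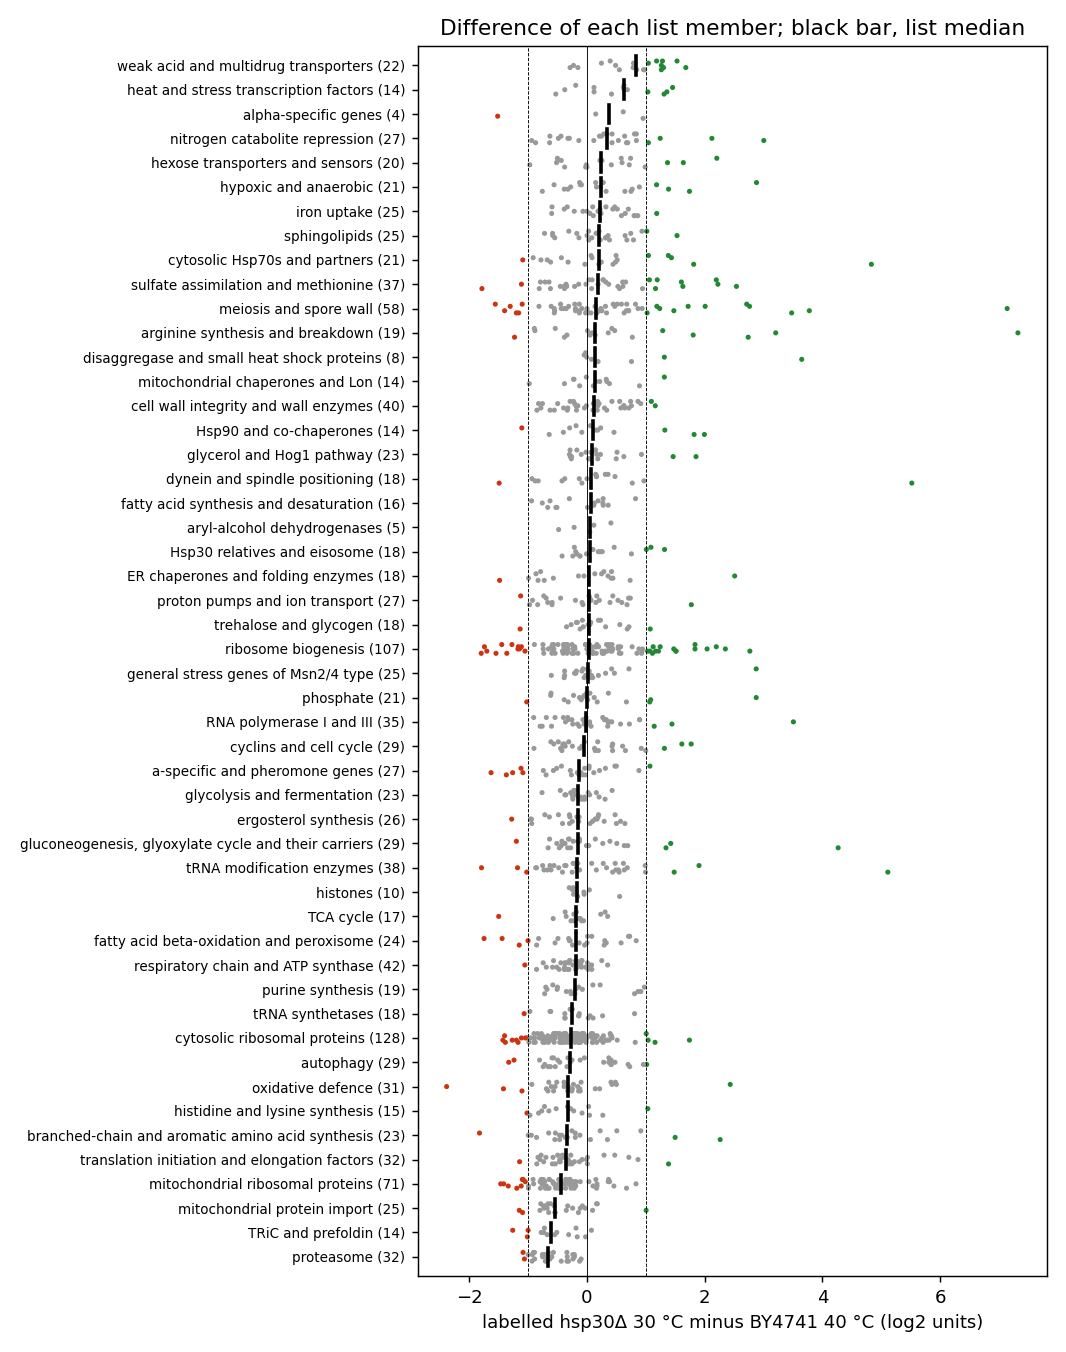
Difference of each member (dot) of the 50 gene lists, ordered by list median (black bar), with the number of genes used in parentheses; dashed lines mark 2-fold, green dots are at least 2-fold higher and red dots at least 2-fold lower. The transporter list at the top has its median at 0.83 and the proteasome list at the bottom at -0.65. Single members such as ARG3 (7.32), OSW1 (7.14, from a low BY4741 40 °C reading), PAC1 (5.52) and TAD2 (5.11) lie far from the medians of their lists.

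Chaperone lists had medians from 0.04 to 0.20, apart from TRiC and prefoldin at -0.61, with members above and below 0 in each. Among the 21 cytosolic Hsp70s and partners, 5 passed 2-fold upward and 1 downward, and the median was 0.20. Without genes above 15 on both arrays that median was -0.04, and those of the Hsp90 and mitochondrial chaperone lists were -0.14 and -0.07, beside 0.10 and 0.13. APJ1, a J protein that acts on aggregates, read 12.93, 13.58, 15.39 and 15.21 and was 1.81 higher. HLJ1, a J protein of the ER membrane, read 10.58, 11.19, 12.62 and 12.19 and was 1.43 higher. YDJ1, the main cytosolic J protein, read 14.56, 14.11, 15.50 and 15.44 and was 1.38 higher. The J proteins APJ1, HLJ1 and YDJ1 were thus higher on both hsp30Δ-labelled arrays than on both BY4741 arrays. ZUO1, a J protein of the ribosome, behaved like ribosomal genes, at 14.75, 12.39, 12.36 and 12.95.

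Of the 14 genes for Hsp90 and its co-chaperones, 3 passed 2-fold upward and 1 downward. HCH1 and AHA1 encode related activators of the Hsp90 ATPase. HCH1 read 13.83, 13.14, 15.13 and 15.05, a difference of 1.99. AHA1 read 13.56, 13.38, 15.20 and 15.21, a difference of 1.82. In both, the heated BY4741 array was lower than the unheated BY4741 array. CNS1, a co-chaperone that also binds Hsp70, was 1.32 higher at 10.28, 8.37, 9.69 and 9.20. TAH1, of the R2TP complex, was lower, with a difference of -1.11.

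CUR1, which sorts misfolded proteins to the nucleus, stood out in its list at 10.67, 10.97, 14.61 and 14.61, a difference of 3.65. BTN2, its relative in protein sorting, read 15.17, 14.95, 15.71 and 15.72, a difference of 0.76. MDJ1, the J protein of the mitochondrial matrix, read 13.22, 13.90, 15.22 and 15.10 and was 1.31 higher. With ERO1, which supplies oxidising power for disulfide bonds in the ER, the pattern returned: 12.87, 12.46, 14.97 and 15.25, a difference of 2.51. FPR2, a prolyl isomerase of the ER, was on the other side at 12.25, 11.16, 9.68 and 10.04, a difference of -1.48. The 18 ER genes had a median of 0.04.

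The chaperonin TRiC and its partner prefoldin, which fold actin and tubulin, were lower as a list. Of 14 genes, 13 were below 0, 3 of them past 2-fold, and the median was -0.61. All 3 were prefoldin genes. YKE2 read 11.54, 11.32, 10.05 and 10.54, a difference of -1.26. PAC10 read 11.98, 10.84, 9.82 and 10.25, a difference of -1.01. GIM4, at 11.79, 11.16, 10.16 and 10.25, lay at the 2-fold bound. Once the trend over level was removed, PAC10 and GIM4 were just under it, both at -0.99. The 8 TRiC genes had a median of -0.37 and the 6 prefoldin genes -0.86.

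Every one of the 32 proteasome genes was below 0, with a median of -0.65, and 2 of them passed 2-fold. RPN9, of the lid, read 13.05, 13.60, 12.51 and 12.93, a difference of -1.09. PUP2, of the core, read 13.73, 14.24, 13.18 and 13.29, a difference of -1.06. After the trend over level was removed, both were just under 2-fold. The core particle genes had a median of -0.68, the 6 ATPase genes -0.68 and the 12 other regulatory genes -0.60. Median levels of the list were 13.61, 14.20, 13.55 and 13.73, so BY4741 40 °C alone was high. RPN4, the transcription factor of proteasome genes, was named after its value was seen, and it was 0.63 higher.

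Stress regulators were higher as a list. Of 14 genes, transcription factors and the kinase RIM15, 11 were above 0, 4 of them past 2-fold, 0 passed it downward, and the median was 0.62. RIM15, the kinase that brings cells into quiescence, read 9.95, 10.27, 11.72 and 11.25, a difference of 1.45. CIN5, of the Yap family, read 8.82, 9.55, 10.91 and 10.81, a difference of 1.36. SKN7, a factor of the oxidative and osmotic response, read 10.72, 10.26, 11.57 and 11.23, a difference of 1.31. MSN2 passed 2-fold at 1.03, with 11.13, 11.04, 12.07 and 11.35, and did not after quantile normalization or common medians. MSN4 read 12.31, 13.35, 12.97 and 13.17, and HSF1 read 10.89, 12.00, 12.42 and 12.31. These last 2 were within 2-fold, with MSN4 lower and HSF1 higher on the hsp30Δ-labelled array.

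The largest list median was that of the weak acid and multidrug transporters and their regulators, 0.83. Of 22 genes, 19 were above 0, 8 of them past 2-fold, and 0 passed it downward. TPO1, a polyamine exporter, read 12.85, 13.20, 14.87 and 14.67, a difference of 1.68. RSB1, which moves long-chain bases across the membrane, read 10.23, 12.57, 14.09 and 14.17, a difference of 1.53. YOR1, an oligomycin exporter of the ABC family, read 12.47, 13.03, 14.33 and 13.65, a difference of 1.30. TPO4, another polyamine exporter, read 13.22, 13.65, 14.93 and 14.83, a difference of 1.28. In these 4 genes both hsp30Δ-labelled arrays were above both BY4741 arrays. A group of 8 ABC transporters, chosen by name and not all that the lists hold, lay above 0 throughout, with a median of 0.91. The 9 drug and polyamine antiporters, also chosen by name, had a median of 0.49, with 6 above 0 and 3 below. FLR1, a fluconazole exporter, was level at 9.63, 11.03, 10.88 and 11.06.

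Of the 18 genes for Hsp30, its relatives and eisosomes, 15 lay within 2-fold, while 84.5% of all genes did. The 3 higher members were PKH1, PKH2 and HSP30 itself, and HSP30 was under 2-fold with common medians (0.95). PMA1 read 14.94, 13.87, 14.04 and 14.46, a difference of 0.17. Hsp30's relatives MRH1 and YRO2 read 15.08, 15.03, 14.79 and 15.08, and 14.50, 15.02, 15.21 and 14.98. PKH1, a kinase that responds to sphingolipids at eisosomes, was 1.32 higher at 11.34, 11.47, 12.79 and 12.21, and its relative PKH2 was 1.09 higher at 10.03, 11.06, 12.14 and 11.62. The vacuolar proton pump went the other way: of its 14 subunit genes 11 were below 0, with a median of -0.63. VMA7 read 14.15, 13.40, 12.27 and 12.64 and, at -1.13, was the member past 2-fold. ENA5, a sodium exporter, was 1.77 higher at 11.74, 11.89, 13.66 and 12.62, but 0.43 without probe sets that share sequence with other genes.

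Arginine genes were uneven. Of 19, 5 passed 2-fold upward and 1 downward, around a median of 0.14. Beside ARG3, CPA1 encodes the small subunit of the synthetase that supplies carbamoyl phosphate for this pathway. It read 11.90, 11.43, 14.64 and 13.51, a difference of 3.21. ARG1, argininosuccinate synthetase, read 9.87, 8.58, 11.32 and 9.22, a difference of 2.74. PUT1, proline oxidase, read 12.87, 12.53, 14.33 and 13.64, which is 3.49-fold higher. All 4 were highest on the unheated hsp30Δ-labelled array. ORT1, the mitochondrial ornithine carrier, read 8.99, 9.39, 9.39 and 9.40, and ARG2, of the first step, was 0.05 higher.

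Nitrogen source genes had a median of 0.34 over 27 genes, with 4 past 2-fold upward and 0 downward. PUT4, the proline permease, read 8.40, 8.32, 11.32 and 8.79, and so differed by 8.02-fold, and was high on the unheated hsp30Δ-labelled array alone. DUR3, the urea permease, read 8.23, 8.42, 10.54 and 9.88, a difference of 2.12. MEP1, an ammonium permease, read 9.02, 9.34, 10.58 and 9.45, a difference of 1.24. AGP1, a broad amino acid permease, read 13.42, 13.90, 14.94 and 14.43, a difference of 1.04, or 0.99 with common medians. The 4 genes past 2-fold all encode permeases.

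Of 37 genes of sulfate assimilation and methionine, 8 passed 2-fold upward and 2 downward. MET14, adenylylsulfate kinase, read 9.69, 8.19, 10.73 and 10.51, a difference of 2.54. MUP3, a low-affinity methionine permease, read 8.70, 10.48, 12.70 and 12.83, a difference of 2.22. STR3, cystathionine beta-lyase, read 7.44, 7.97, 10.17 and 8.52, a difference of 2.20. SUL1, a sulfate permease, was lower at 2.62, 6.60, 4.81 and 5.07, a difference of -1.78. The cultures all carry the met15Δ0 allele in this pathway. In branched-chain and aromatic synthesis the median was -0.33. ILV2, acetolactate synthase, read 13.35, 11.13, 13.39 and 12.98, 2.26 higher and level with BY4741 30 °C.

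Ribosome biogenesis had a median of 0.03 over its 107 genes, with members past 2-fold on both sides, 16 upward and 12 downward. Both shares were above the 9.34% and 6.19% of all genes. MRT4, which readies the ribosome stalk, read 12.36, 9.84, 12.61 and 12.61, a difference of 2.77. RRS1, of the large subunit, read 9.10, 5.46, 7.81 and 6.30, a difference of 2.35. DIM1, the dimethylase of small subunit rRNA, read 9.68, 6.66, 8.86 and 7.54, a difference of 2.20. NOC4 read 11.27, 7.53, 9.57 and 8.95, a difference of 2.04. MRT4 was level with BY4741 30 °C, whereas RRS1, DIM1 and NOC4 lay between the 2 BY4741 arrays. REI1, described above, was on the lower side.

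RPC17, a subunit of RNA polymerase III, was alike in kind: it read 9.27, 5.94, 9.45 and 8.93, a difference of 3.51. RPA14, of RNA polymerase I, read 11.93, 11.24, 12.68 and 12.19, a difference of 1.44. The 35 genes of these polymerases had a median of -0.01, with 3 past 2-fold upward and 0 downward. Among 38 tRNA modification genes, TAD2 stood far out, and TRM2, a tRNA uracil methyltransferase, was 3.74-fold higher at 11.00, 9.47, 11.38 and 10.61. That list counted 3 higher and 3 lower with a median of -0.17.

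The cytosolic ribosomal protein genes had a median of -0.27, and 99 of 128 were below 0. Past 2-fold were 4 higher and 9 lower. RPL40B, fused to ubiquitin, read 14.63, 11.63, 10.20 and 10.50, a difference of -1.43. RPS9A was the highest at 12.49, 9.09, 10.83 and 10.72, a difference of 1.74. Some ribosomal protein genes share sequence with a paralogue, so the split between copies is uncertain.

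Lists of the mitochondrial ribosome and of protein import lay below 0 in their medians. Of 71 mitochondrial ribosomal protein genes, 59 were below 0, 8 of them past 2-fold, 0 passed it upward, and the median was -0.45. MRPL32 read 11.92, 12.46, 10.99 and 11.20, a difference of -1.47. MRPL25 read 11.97, 12.92, 11.51 and 11.63, a difference of -1.42. The 25 protein import genes had a median of -0.54, with 2 lower and 1 higher. TIM8, a carrier chaperone between the membranes, read 12.55, 12.44, 11.29 and 11.30, a difference of -1.15. ERV1, the sulfhydryl oxidase of the import pathway, read 11.21, 10.16, 9.06 and 9.05, a difference of -1.09. Of the 24 genes of beta-oxidation and peroxisomes 4 were lower and 0 higher. ECI1, an enoyl-CoA isomerase, read 10.69, 12.18, 10.43 and 10.66, and the heated BY4741 array alone was high.

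Oxidative defence had 24 of 31 genes below 0, with 3 past 2-fold downward and 1 upward, around a median of -0.32. TRX1, a cytosolic thioredoxin, read 14.45, 13.92, 12.50 and 12.94, a difference of -1.42. TRR2, the mitochondrial thioredoxin reductase, read 11.86, 13.43, 12.33 and 12.69, a difference of -1.10. SRX1, sulfiredoxin, which repairs overoxidised peroxiredoxins, went against the list at 7.94, 9.58, 12.01 and 11.20, 2.43 higher.

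Of 27 pheromone and a-specific genes, 5 passed 2-fold downward and 1 upward. AGA2, the binding subunit of a-agglutinin, read 13.82, 13.86, 12.23 and 13.36, a difference of -1.63. AGA1, its anchor subunit, read 13.10, 12.30, 10.93 and 12.68, a difference of -1.37. MFA1 read 14.80, 14.59, 13.33 and 14.45, a difference of -1.26. All 3 were lowest on the unheated hsp30Δ-labelled array.

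Meiosis and spore wall genes, which are normally silent in haploid cells in rich medium, had 11 of 58 (19.0%) past 2-fold upward and 6 (10.3%) downward. Their median levels were 7.39 on BY4741 40 °C and 7.80 on the unheated hsp30Δ-labelled array. Among all genes with a mean level of 6 to 8 on these 2 arrays, 19.3% were higher and 8.97% lower, so the list lay near the shares for its level. The list median was 0.15, and -0.10 after quantile normalization. SPS2 read 2.57, 3.23, 7.01 and 5.86, a difference of 3.78. SPR28, a septin of sporulation, read 2.27, 3.42, 6.90 and 5.13, a difference of 3.48. SPS1, a kinase of spore wall formation, read 4.04, 5.54, 8.31 and 7.11, a difference of 2.76. On BY4741 40 °C, SPS2 and SPR28 read not far above the fission yeast maximum of 2.61 on that array, so their differences rest on low readings.

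Signalling and cell cycle genes gave a few large differences in lists with medians near 0. SSK1, of the Hog1 osmotic pathway, read 9.14, 9.11, 10.96 and 11.03, a difference of 1.85. FPS1, the glycerol channel, read 12.30, 11.80, 13.26 and 12.81, a difference of 1.46. WHI5, which holds cells before Start of the cell cycle, read 10.10, 10.10, 11.72 and 11.34, a difference of 1.61. CDC28, the main cell cycle kinase, read 12.09, 11.01, 12.33 and 11.98, a difference of 1.32. MIG2, a glucose repressor, read 8.86, 5.57, 7.77 and 9.33, a difference of 2.20. In SSK1 and WHI5 the BY4741 arrays were level with each other and the hsp30Δ-labelled arrays were higher, while in CDC28 and MIG2 the heated BY4741 array was the low one. TIR4, a cell wall mannoprotein of anaerobic growth, was 2.88 higher at 8.05, 9.0, 11.88 and 11.42.

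A few genes were read on 1 of the 2 arrays alone. The bound here was the highest fission yeast reading on any array of the series, 2.84. On the unheated hsp30Δ-labelled array 16 genes, and on the heated BY4741 array 7, were above this bound but not on the other. For these no fold is given. YJR151W-A read 1.95, 1.97, 6.79 and 6.39, and YBR200W-A read 1.95, 1.95, 5.92 and 3.97. BSC1 read 2.82, 2.39, 5.72 and 8.07. On the other side levels stayed close to the bound. YFL040W read 1.96, 3.46, 2.21 and 2.78, and COS12 read 6.79, 3.09, 2.33 and 3.43.

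The other 2 arrays give a difference that shares no array with this one, the hsp30Δ-labelled 40 °C array minus the BY4741 30 °C array. It holds the same strain labels with the temperatures turned round, and it uses the BY4741 array that stands apart. At least 2-fold higher in it were 1123 genes (20.7%) and at least 2-fold lower 990 (18.2%). Over genes, Pearson r between the 2 differences was 0.42 and Spearman rho 0.38, given as a description. Of the 507 genes higher here, 289 (57.0%) were also at least 2-fold higher there, 25.7% of those 1123, and 41 (8.09%) were at least 2-fold lower. Of the 336 genes lower here, 133 (39.6%) were also lower there, 13.4% of those 990, and 28 (8.33%) were higher. TAD2 differed by 5.11 here and 5.13 there. ARG3 differed by 7.32 and 4.13, and CUR1 by 3.65 and 3.94. For these 3 the sign held with either pairing of the temperatures. OSW1, 7.14 higher here, has no exact size there, since its BY4741 30 °C reading of 2.16 is below the fission yeast maximum. PUT4 and RPC17 passed 2-fold here alone: PUT4 was 8.02-fold higher here and differed by 0.39 log2 units there, and RPC17 by 3.51 and -0.33. RRS1, at 2.35 and -2.80, was 1 of the 41 genes higher here and lower there. AAH1 differed by -0.20 here and -7.14 there, and DSF1 by -0.12 and 5.46.

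**Figure D5:**
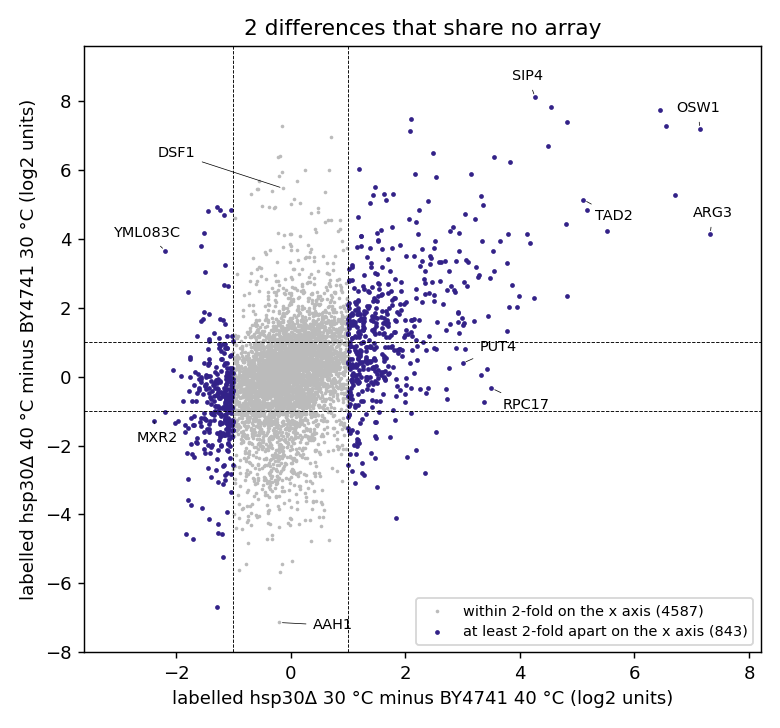
Difference of each gene between the array labelled hsp30Δ 30 °C and BY4741 40 °C (x axis) and between the array labelled hsp30Δ 40 °C and BY4741 30 °C (y axis), in log2 units; dashed lines mark 2-fold, and the 843 genes at least 2-fold apart on the x axis are dark. OSW1, ARG3, TAD2 and SIP4 lie high on both axes (OSW1 with a y value that starts from a reading at background), while AAH1 and DSF1 are near 0 on the x axis alone.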

How the data were processed

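RNA of 4 cultures, 1 array each, was hybridised to Affymetrix arrays. The authors deposited a normalized table of log2 values. GCRMA and MAS5 are listed per the submitters' processing notes, without versions or roles, and a genome build is not given in the sources used here. The values were used as deposited. A gene's value is that of its brightest probe set by the mean of all 4 arrays. Background was 1.96, from the fission yeast probe sets (their 95th percentile). Of 5436 genes, 6 never above it were left out, and lower values were raised to it. For 45 genes there were several probe sets, and in 6 of them these differed by more than 1. With 1 array a side no test was run. Genes at least 2-fold apart were counted, and the number of arrays limits precision.

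The members and the lists were chosen with earlier results of these data known. Named genes are the 15 largest differences each way, up to 6 read on 1 array alone each way, the 4 largest and 2 smallest differences of each list, up to 8 each way that were alike on both arrays and far from BY4741 30 °C, and 12 genes fixed by name. Code was checked on simulated data. Python 3.11.15, pandas 2.3.3, numpy 2.4.6, scipy 1.17.1 and statsmodels 0.14.6 were used. 8 alternatives were tried.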

Additional observations from a re-analysis of the deposited data

Results flagged for a closer look

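Outside the comparison, 287 probe sets carry no gene name. Of these, 216 were above the highest fission yeast probe set on at least 1 array, 29 (10.1%) were at least 2-fold higher on the hsp30Δ-labelled 30 °C array than on BY4741 40 °C, and 16 (5.57%) were at least 2-fold lower. YML083C read 2.75, 8.24, 6.05 and 6.41 on BY4741 30 °C, BY4741 40 °C, hsp30Δ-labelled 30 °C and hsp30Δ-labelled 40 °C. Its difference was -2.19 in the comparison described and 3.65 with the temperatures turned round, so the strain labels lay in opposite order, and this reversal was not tested.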

How the results depend on the processing

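Across the 8 alternatives, genes at least 2-fold higher numbered 460 to 537 and genes at least 2-fold lower 291 to 404, beside 507 and 336. Genes at least 4-fold lower numbered 18 after quantile normalization, beside 5. The higher share of calls was 60.1% as reported, 54.0% after quantile normalization, 53.2% with common medians and 64.9% with the trend over level removed. No named gene past 2-fold changed its sign, 17 of 346 moved by over 1.5 times under at least 1 alternative, and 32 of 346 crossed the 2-fold bound under at least 1 alternative. Medians of 14 of the 50 lists changed sign under at least 1 alternative, each with a reported median of at most 0.20 in size. They include the Hsp70, Hsp90 and mitochondrial chaperone lists, at -0.04, -0.14 and -0.07 without genes above 15 on both arrays. With genes above 15 on both arrays left out, the median of the disaggregase and small heat shock protein list was 1.03, beside 0.13. The genes left out include HSP104 (-0.003) and HSP26 (-0.02), near the top of the scale on both arrays, while HSP31, BTN2, MDJ1 and CUR1 stayed in. HXT17 was 1.33 higher with its probe sets averaged, beside 0.00. No paired analysis was possible because each group holds 1 array, and no array could be left out for the same reason.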
